A study of Bos taurus with 8 samples.

Results

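The genes described here are those of the interferon response and of viral RNA sensing in bovine (Bos taurus) granulosa cells, the estrogen-producing cells that line the ovarian follicle. Members were all transcript clusters (the probe sets of the array that read 1 transcript region each) whose annotated symbol was on a list of 33 genes or was IRF followed by a digit. Of the 33 listed genes 31 had a cluster with a single name, and 8 IRF genes were added. That gave 39 genes on 39 clusters, out of 18087 named genes and 24415 clusters in all. DDX58 is listed on the array under its current symbol RIGI. OAS1X shares its 2 clusters with OAS1Z, and BST2 has no cluster of that name, so neither has a value here.

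The cells came from small to medium follicles of abattoir ovaries, had been frozen, and were cultured on collagen without serum but with FSH, IGF-1 and androstenedione. On day 6 the LOL cultures were moved to 1% oxygen while the NOL cultures stayed at 21% oxygen, and both were harvested on day 8. Total RNA of 4 LOL and 4 NOL samples was hybridised to Affymetrix Bovine Gene 1.0 ST arrays, 1 sample per array and 1 colour. The question was how low oxygen, as found in the maturing follicle, changes the transcriptome of these cells. Neither labels nor methods tell whether the 4 samples within a group were separate cultures or animals. The p-values therefore refer to variation among these arrays alone, which can be technical.

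Cells recognise viral RNA with Toll-like receptors in membranes and with RIG-I-like helicases in the cytosol. Both routes switch on kinases and interferon regulatory factors (IRFs) that drive interferon genes. Secreted interferons then bind receptors that act through JAK kinases and STAT proteins, and the resulting transcription of interferon-stimulated genes blocks viral replication and sharpens antigen presentation. In ruminants the same genes answer interferon tau, the pregnancy signal of the conceptus.

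All values are log2 signals as deposited, and all differences are LOL minus NOL on the log2 scale. The array medians were 4.12 to 4.18 in LOL and 4.06 to 4.08 in NOL. LOL 3 stood slightly apart, with a median of 4.18 and an upper quartile of 5.97, where the other LOL arrays had 6.03 to 6.04. Pairs of arrays correlated at 0.993 to 0.996 within LOL, at 0.973 to 0.978 between the groups and at 0.995 to 0.996 within NOL, across clusters. Of 15 genes known to answer low oxygen 14 were higher in LOL and 1, PFKFB4, was lower (2.13-fold, adjusted p = 1.25e-05). This count and the marker counts below stand beside 22.3% higher and 23.7% lower among all clusters with 1 gene name. Granulosa cell markers were present but mostly lower, with 11 of 15 lower and 1 higher. Their summed linear signal was 5771 to 6366 in LOL and 9889 to 10301 in NOL. In such bulk RNA, fewer cells of a type and less RNA per cell cannot be told apart. Fibroblast and smooth muscle markers were higher for 11 of 13, with sums of 5315 to 5505 in LOL and 3813 to 4275 in NOL. Of 12 endothelial markers 3 were higher (25%), where 22.3% of all clusters with 1 gene name were. The sums of all 12 were 155 to 174 in LOL and 95.4 to 113 in NOL. CLDN5 carried most of that shift, and without it the sums overlapped, at 87.4 to 108 in LOL and 82.4 to 90.3 in NOL. Of 7 theca markers 1 was higher (INSL3) and 2 lower (HSD3B1 and LHCGR, which is also on the granulosa list). Their sums were 2650 to 2767 in LOL and 3144 to 3388 in NOL. HSD3B1 carried most of these sums, with a mean of 11.07 in LOL and 11.50 in NOL, and the paper places it in granulosa cells. INSL3, the next brightest, went the other way, at 8.48 in LOL and 7.44 in NOL. The sums therefore do not show lower theca markers as a set. Whether these shifts have a part in the results below was not tested.

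More of the interferon and sensing genes were lower in LOL than higher. Of the 39 members 16 were lower and 5 higher in LOL at an adjusted p under 0.05 (limma, Benjamini-Hochberg over all 24415 clusters), and 18 did not pass. These are 41.0% and 12.8% of the members, against 20.5% lower and 20.5% higher among all clusters. Among clusters with 1 gene name the shares were 23.7% lower and 22.3% higher. A fold over 2 was reached by 3 lower members (TLR3, TLR6, MX1) and by 1 higher member (DHX58), while 2.65% of all clusters were lower and 2.22% higher by that rule. The arrays of the 2 groups did not overlap for 22 members, or 56.4%, against 39.4% of all clusters. The median difference was -0.03 over the members and 0.06 over all clusters.

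**Figure D1:**
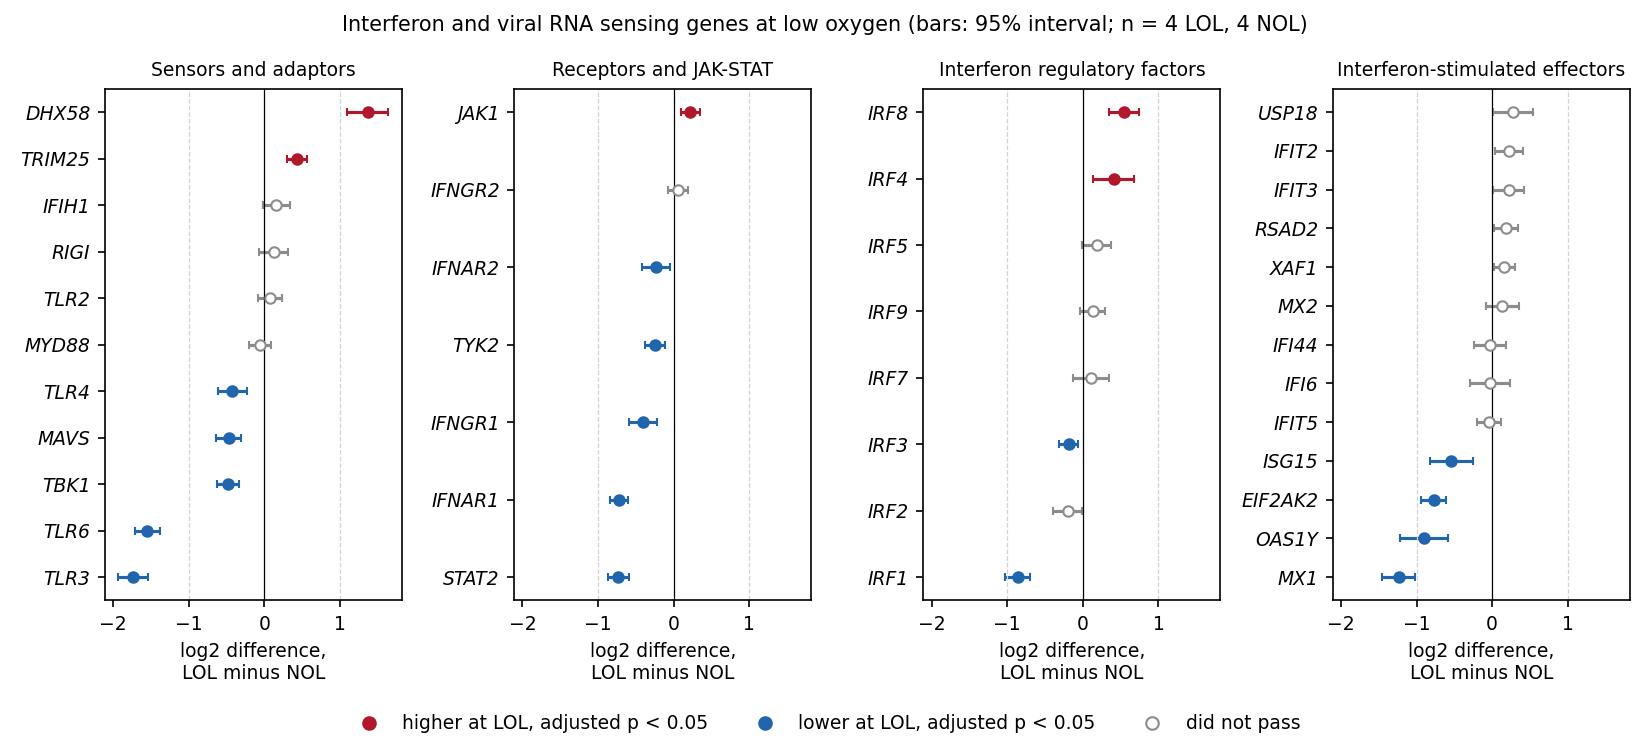
Log2 difference (LOL minus NOL) of each of the 39 members with its 95% interval, in 4 panels by role, with red for higher and blue for lower at an adjusted p under 0.05 and open grey for genes that did not pass. Dashed lines mark a 2-fold difference, and DHX58 lies alone beyond it on the right, against TLR3, TLR6 and MX1 on the left.

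The share of calls varied with the signal. Members with a mean log2 signal of 4 to 6 were lower for 8 of 12 and higher for 1, where 30.9% of all clusters of that signal were lower and 26.3% higher. Between 6 and 8 they were lower for 7 of 12 and higher for 1, where the shares over all clusters were 41.4% and 28.1%. Of the 13 members under 4 in both groups, 11 had a positive difference, with a median of 0.16. Clusters that dim were positive for 70.7% of 11273, with a median of 0.09, so the small positive differences of the dim members lie on the same side as most dim clusters.

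**Figure D2:**
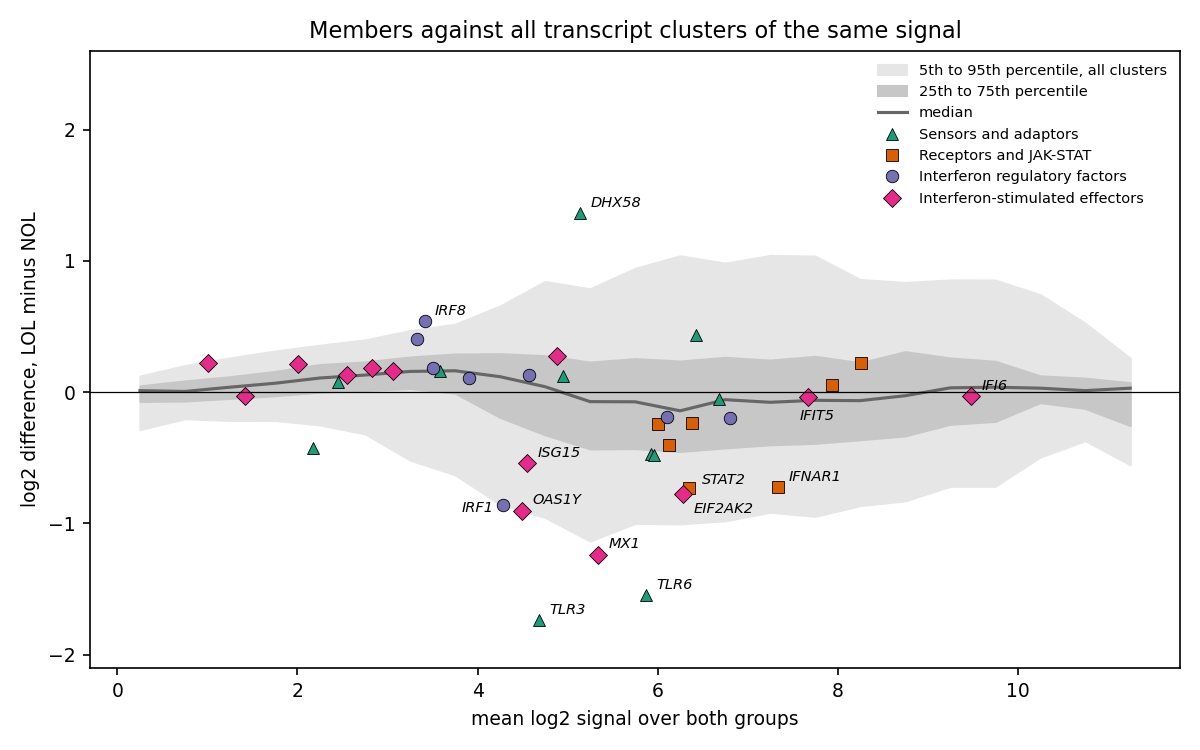
Log2 difference (LOL minus NOL) against the mean log2 signal of the 8 arrays, with members as coloured symbols by role and grey bands for all clusters in bins of 0.5 log2 units with at least 20 clusters. TLR3, TLR6, MX1 and TLR4 lie below and DHX58 and IRF8 above the 5th to 95th percentile band, IRF1 and OAS1Y lie at its lower edge, and IFI6 and IFIT5 lie close to the median line.

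Of the 11 sensors and adaptors 5 were lower (45.5%), 2 higher (18.2%) and 4 did not pass. Among all clusters with 1 gene name 23.7% were lower and 22.3% higher. The lower genes were 3 Toll-like receptors (TLR3, TLR6, TLR4) with MAVS and TBK1, and the higher genes were DHX58 and TRIM25. TLR3, the endosomal receptor for viral double-stranded RNA, had log2 signals of 3.95, 3.73, 3.69 and 3.87 in LOL, against 5.40, 5.64, 5.67 and 5.48 in NOL. No LOL array came near the lowest NOL array. The difference was -1.74 ± 0.09 (SE, adjusted p = 2.99e-07), which is at least 3.33-fold lower, a lower bound because the LOL mean is under log2 4, where signal and background blend. TLR6, which pairs with TLR2 on the cell surface to bind bacterial lipopeptides, had 5.12, 5.02, 5.24 and 5.03 in LOL, against 6.67, 6.66, 6.74 and 6.53 in NOL. The groups were again far apart, with a difference of -1.55 ± 0.07 (2.92-fold lower, adjusted p = 2.26e-07).

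DHX58 encodes LGP2, the RIG-I-like helicase that lacks the signaling domain of its relatives and tunes their activity. Its log2 signals were 5.97, 5.90, 5.86 and 5.54 in LOL, against 4.72, 4.53, 4.28 and 4.28 in NOL. Every LOL array lay above every NOL array, and the difference was 1.36 ± 0.12 (2.58-fold higher, adjusted p = 1.27e-05). TRIM25, the ubiquitin ligase that activates RIG-I, was higher by 0.43 ± 0.06 (adjusted p = 2.83e-04). The other RIG-I-like receptors did not pass: RIGI differed by 0.12 ± 0.09 (adjusted p = 0.276) and IFIH1, which encodes the long-RNA sensor MDA5, by 0.16 ± 0.08 (adjusted p = 0.142). The means of IFIH1 were under log2 4 in both groups.

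Below the sensors, MAVS, the mitochondrial adaptor of the RIG-I-like receptors, was lower, at -0.47 ± 0.07 (adjusted p = 5.59e-04). TBK1, the kinase that phosphorylates IRF3, was lower, at -0.48 ± 0.06 (adjusted p = 1.72e-04), with 5.58 to 5.80 in LOL and 6.18 to 6.21 in NOL. TLR4, the receptor for bacterial lipopolysaccharide, was lower, at -0.42 ± 0.08 (adjusted p = 0.00260) at signals under log2 4 in both groups. Neither MYD88, the adaptor of most Toll-like receptors, with -0.06 ± 0.07 (adjusted p = 0.541), nor TLR2, with 0.08 ± 0.07 (adjusted p = 0.422), passed. TLR2 was dim, at 2.39 to 2.56 in LOL and 2.34 to 2.53 in NOL, where a lower level in LOL may not show.

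Of the 7 receptor and JAK-STAT genes 5 were lower (71.4%), 1 was higher (14.3%) and 1 did not pass. All clusters with 1 gene name were lower for 23.7% and higher for 22.3%. Among clusters with a mean log2 signal of 6 to 8, where all of these genes but JAK1 lie, 41.4% were lower and 28.1% higher. Both chains of the type I interferon receptor were among the lower genes. IFNAR1 had 6.96, 6.96, 6.97 and 7.03 in LOL, against 7.74, 7.64, 7.74 and 7.69 in NOL. The spread within each group was a small part of the gap, and the difference was -0.72 ± 0.06 (1.65-fold lower, adjusted p = 4.39e-06). STAT2, the STAT protein specific to type I and type III interferon signals, had 5.97, 5.97, 6.03 and 5.97 in LOL, against 6.64, 6.65, 6.74 and 6.84 in NOL. The groups did not overlap, at -0.73 ± 0.06 (1.66-fold lower, adjusted p = 9.67e-06).

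The second chain, IFNAR2, differed less, by -0.23 ± 0.08 (adjusted p = 0.0435), and its arrays overlapped. That call was lost without any 1 of LOL 2, LOL 3, LOL 4, NOL 1, NOL 3 or NOL 4, where the adjusted p was 0.0666 to 0.0998, and after quantile normalization (-0.16, adjusted p = 0.129). TYK2, the kinase bound to IFNAR1, was lower, at -0.24 ± 0.06 (adjusted p = 0.00908). JAK1, the kinase shared by the receptors for all interferon types, was higher by 0.22 ± 0.06 (adjusted p = 0.0108). Neither of these calls held under every scaling: TYK2 had an adjusted p of 0.0956 after quantile normalization, and JAK1 0.0718 after centring each array on its median.

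Of the 2 receptor chains for interferon gamma 1 passed. IFNGR1, the ligand-binding chain, was lower, at -0.40 ± 0.08 (adjusted p = 0.00298). IFNGR2, the signaling chain, had 8.03, 7.93, 7.94 and 7.98 in LOL, against 8.01, 7.84, 7.87 and 7.93 in NOL. Its groups overlapped, and the difference of 0.06 ± 0.06 did not pass (adjusted p = 0.489).

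**Figure D3:**
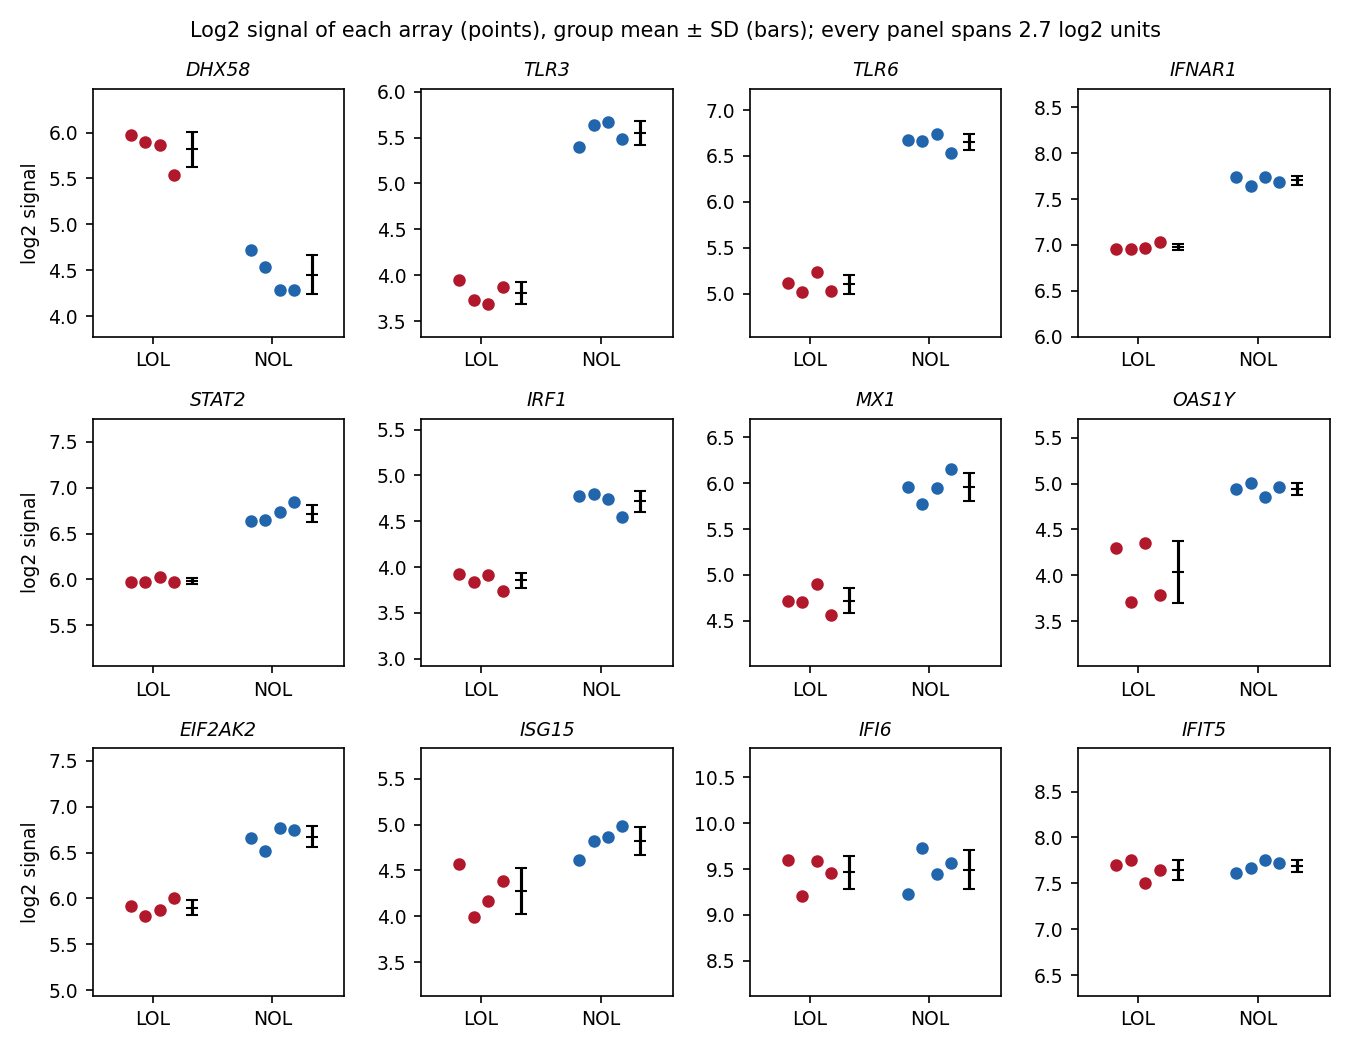
Log2 signal of each array (points) with the group mean ± SD (bars, n = 4 per group), LOL in red and NOL in blue, for the 9 members past the adjusted p with a fold over 1.5 and for ISG15, IFI6 and IFIT5. All panels span the same height, so that the gap of TLR3 or TLR6 can be set against the overlap of IFI6 and IFIT5.

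Of the 8 interferon regulatory factors 2 were lower (25%), 2 higher (25%) and 4 did not pass. These shares are near the 23.7% lower and 22.3% higher among all clusters with 1 gene name. IRF1, the activator induced by interferon gamma, had 3.93, 3.84, 3.91 and 3.74 in LOL, against 4.78, 4.80, 4.74 and 4.55 in NOL. The groups did not overlap, and the difference was -0.86 ± 0.08 (adjusted p = 1.04e-05). IRF3, the factor activated by TBK1, was lower, at -0.19 ± 0.06 (adjusted p = 0.0221). Without LOL 4, NOL 2 or NOL 3 it no longer passed, with adjusted p of 0.0609, 0.0525 and 0.0584. After quantile normalization its difference was -0.09 (adjusted p = 0.247).

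IRF2, which binds the same sites as IRF1 and mostly represses them, had 6.73, 6.81, 6.51 and 6.78 in LOL, against 6.80, 7.01, 6.99 and 6.83 in NOL. The groups overlapped at the lowest NOL array, and the difference of -0.20 ± 0.08 did not pass (adjusted p = 0.0874). IRF2 did pass as lower after median centring (0.0448) and with intensity trend and robust variances (0.0437). It also passed among clusters over log2 4 in at least 1 group (0.0448). The 2 higher factors, IRF8 and IRF4, which shape myeloid and lymphoid cells, were dim. IRF8 had 3.48 to 3.86 in LOL and 3.09 to 3.21 in NOL, a difference of 0.54 ± 0.09 (adjusted p = 6.95e-04). IRF4 had 3.39 to 3.71 in LOL and 2.80 to 3.33 in NOL, a difference of 0.41 ± 0.12 (adjusted p = 0.0219). The IRF4 call was lost without LOL 3 (adjusted p = 0.0565) or NOL 2 (adjusted p = 0.0539), and after quantile normalization (adjusted p = 0.0572).

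Leukocyte markers were measured beside these 2 genes. Of 28 markers, 4 were higher (14.3%, CD68, CSF1R, SPI1, CD3D) and 1, KLRK1, was lower (3.57%), and 26 were under log2 4 in both groups. These shares are close to those of all clusters under log2 4 in both groups, 12.4% higher and 3.73% lower. The summed linear signal of all 28 was 245 to 291 in LOL and 221 to 242 in NOL. PTPRC, the pan-leukocyte CD45 gene, lay at 1.67 to 2.20 in LOL and 1.74 to 2.10 in NOL, near the bottom of the array range of 0.08 to 12.42. The part of these markers in the IRF8 and IRF4 differences was not tested. Of the remaining factors IRF5 differed by 0.18 ± 0.09, IRF9, the DNA-binding partner of STAT2, by 0.13 ± 0.07, and IRF7, the inducer of interferon alpha genes, by 0.10 ± 0.11. None of these 3 passed (adjusted p of 0.128, 0.203 and 0.463), although IRF5 did without LOL 2, at 0.0362. The means of IRF5 and IRF7 were under log2 4 in both groups.

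Among the 13 interferon-stimulated effectors 4 were lower (30.8%), 9 did not pass and 0 were higher in limma, with 5 higher at an unadjusted p under 0.05. With an unmoderated analysis of variance 1 of them, XAF1, was higher (adjusted p = 0.0342). The share of lower effectors is near the 23.7% lower among all clusters with 1 gene name, where 22.3% were higher. MX1, the GTPase that traps viral nucleocapsids, had 4.72, 4.70, 4.90 and 4.56 in LOL, against 5.96, 5.77, 5.95 and 6.15 in NOL. The gap was wider than the spread of either group, with a difference of -1.24 ± 0.10 (2.36-fold lower, adjusted p = 4.82e-06). EIF2AK2, which encodes the RNA-activated kinase PKR that halts translation, had 5.92, 5.81, 5.87 and 6.00 in LOL, against 6.66, 6.52, 6.77 and 6.75 in NOL. It was 1.71-fold lower, by -0.78 ± 0.07 (adjusted p = 1.97e-05), with no overlap.

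OAS1Y is 1 of the bovine copies of the oligoadenylate synthetase that activates RNase L. Its signals were 4.30, 3.71, 4.35 and 3.79 in LOL, against 4.94, 5.01, 4.85 and 4.96 in NOL. The LOL arrays formed a high and a low pair, both below NOL, and the difference was -0.90 ± 0.14 (1.87-fold lower, adjusted p = 6.10e-04). How far its probes also read the other copies was not tested. ISG15, a ubiquitin-like protein coupled to other proteins during infection, had 4.57, 3.99, 4.17 and 4.38 in LOL, against 4.61, 4.82, 4.86 and 4.98 in NOL. Its groups nearly touched, and it was lower, at -0.54 ± 0.13 (adjusted p = 0.00663).

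The brightest effectors did not pass. IFI6, a small membrane protein of mitochondria and endoplasmic reticulum, was at the 98.2nd percentile of all clusters in LOL, with 9.60, 9.21, 9.59 and 9.46, against 9.23, 9.73, 9.45 and 9.57 in NOL. The groups lay across each other, with a difference of -0.03 ± 0.12 (95% interval -0.30 to 0.24, adjusted p = 0.862). IFIT5, an RNA-binding protein of the IFIT family, had 7.70, 7.75, 7.50 and 7.64 in LOL, against 7.61, 7.67, 7.75 and 7.72 in NOL. Here too the groups overlapped, at -0.04 ± 0.07 (95% interval -0.20 to 0.12, adjusted p = 0.685).

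The other 7 effectors that did not pass had differences from -0.03 (IFI44) to 0.28 (USP18, which strips ISG15 from proteins and damps the receptor). USP18 was at 5.02 ± 0.17 in LOL and 4.74 ± 0.22 in NOL (SD, n = 4 each, adjusted p = 0.0925). The remaining 6 were under log2 4 in both groups, namely IFIT2 (0.22), IFIT3 (0.22), RSAD2 (0.18), XAF1 (0.16), MX2 (0.13) and IFI44. Their adjusted p ran from 0.0517 for IFIT2 to 0.838 for IFI44. Leaving out 1 array brought IFIT2 (without LOL 1 or LOL 4, adjusted p = 0.0424 and 0.0297), RSAD2 (without LOL 2, 0.0400) and XAF1 (without NOL 1, 0.0450) past the threshold.

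Related genes were also set beside each other. Their differences were compared in 16 pairs by an exact two-sided permutation test over the 35 splits of the 8 arrays, whose smallest p is 0.0286. The pairs were picked after their values had been seen, so these p-values only describe the pairs and are not independent evidence. In the RefSeq gene table IFNGR2, IFNAR1, IL10RB and IFNAR2 follow each other on chromosome 1 with no gene between them, and all 4 were above log2 4 in both groups. IL10RB, the receptor chain shared by interleukin 10 and type III interferons, was higher by 0.51 ± 0.06 (adjusted p = 9.58e-05), beside IFNAR1 at -0.72. All 6 pairs among these 4 neighbours had the smallest exact p of 0.0286 (adjusted over the 16 pairs, 0.0381). These 6 pairs share 4 genes and so are not independent of each other. The pair IFNAR1 minus IL10RB was the widest of the 6, at -1.24 ± 0.07 (SE). RIGI minus DHX58 was -1.24 ± 0.19 (exact p = 0.0286, adjusted 0.0381), with both genes above log2 4. TLR6 minus TLR1, its close relative at 5.50 to 5.86 in LOL and 5.79 to 6.01 in NOL, was -1.34 ± 0.13 (exact p = 0.0286, adjusted 0.0381).

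In the other pairs 1 or both genes were under log2 4 in both groups, where a lower level in LOL may not show, so their values are given without a comparison. TLR10, the neighbour of TLR6 on chromosome 6, lay at 1.81 to 1.94 in LOL and 1.76 to 2.07 in NOL. MX2, adjacent to MX1 on chromosome 1, lay at 2.57 to 2.73 in LOL and 2.24 to 2.72 in NOL. IFIH1 had 3.55 to 3.80 in LOL and 3.40 to 3.60 in NOL. Of the IFIT genes on chromosome 26, IFIT2 lay at 0.98 to 1.29 in LOL and 0.85 to 0.97 in NOL, and IFIT3 averaged 2.12 ± 0.10 in LOL and 1.90 ± 0.16 in NOL (SD, n = 4 each).

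**Figure D4:**
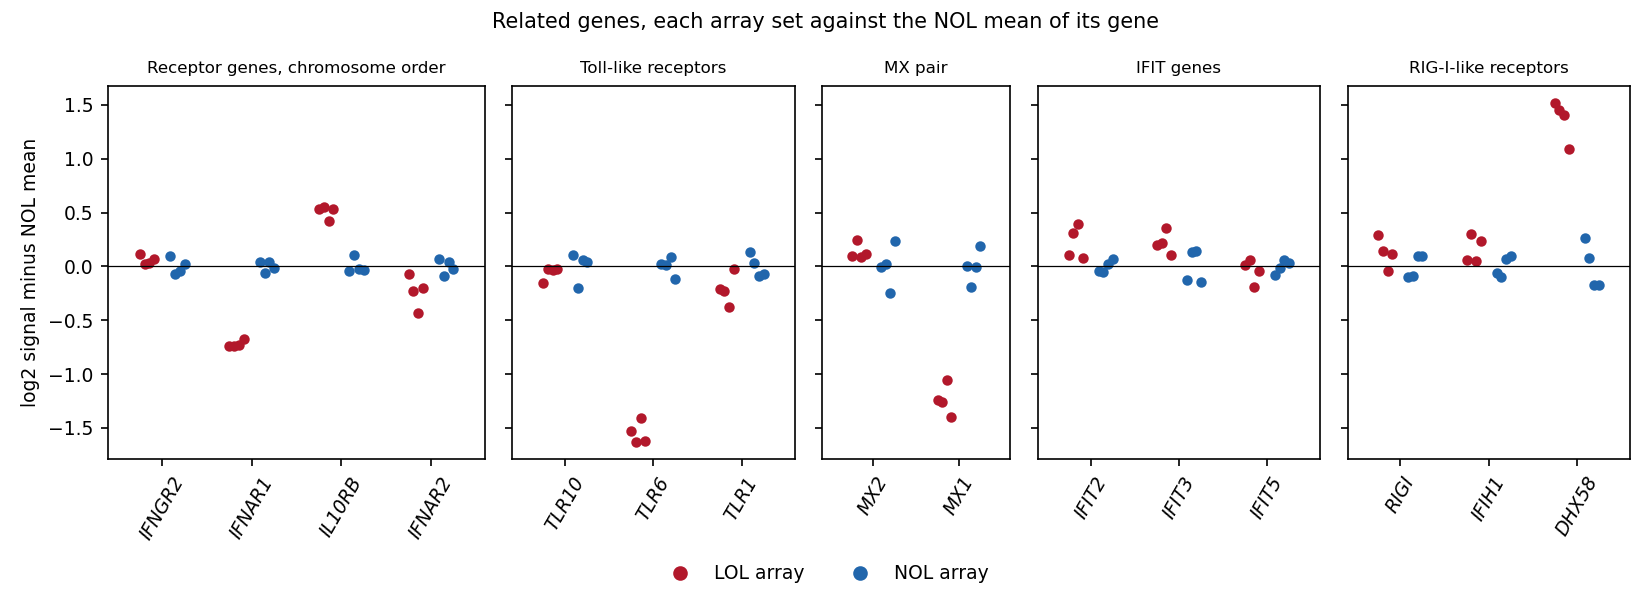
Log2 signal of each array minus the NOL mean of the same gene, LOL arrays in red to the left of NOL arrays in blue, for 5 sets of related genes. IFNAR1, TLR6 and MX1 lie well below 0 in LOL and IL10RB and DHX58 above it, while TLR10, MX2, IFIT2, IFIT3 and IFIH1 have means under log2 4 in both groups.

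Other genes of the same pathways were counted from lists chosen for their function, but with earlier results of these data known. Their counts are therefore descriptive and no independent support. Among all clusters with 1 name 22.3% were higher and 23.7% lower. Of 33 further sensing and adaptor genes 9 were higher (27.3%), 10 lower (30.3%) and 14 did not pass, with a median difference of -0.06. DHX9, an RNA helicase that also binds viral nucleic acid, was 2.72-fold lower (-1.45 ± 0.07, adjusted p = 3.40e-07). IRAK4, the first kinase below MYD88, was 1.68-fold lower and TANK, a scaffold of TBK1, was 1.66-fold lower (adjusted p = 2.20e-04 and 1.11e-05). TRAF6, the ubiquitin ligase that passes the Toll-like receptor signal on, was 2.15-fold higher, with 7.73, 7.63, 7.55 and 7.67 in LOL, against 6.57, 6.53, 6.50 and 6.56 in NOL. TLR1 (-0.21) and PQBP1 (0.02), a cofactor of DNA sensing, did not pass. TLR1 passed without LOL 4 (adjusted p = 0.0266), after median centring (0.0403) and among clusters over log2 4 in at least 1 group (0.0404).

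A list of 23 further JAK-STAT genes held receptor chains and signal transducers as well as negative regulators. Of these 6 were higher (26.1%), 7 lower (30.4%) and 10 did not pass, with a median difference of 0.07. SOCS3, an inhibitor of JAK kinases, had 5.82, 5.79, 5.83 and 5.68 in LOL, against 7.56, 7.64, 7.44 and 7.61 in NOL. It was 3.44-fold lower (adjusted p = 6.6e-08), and SOCS4 was 2.51-fold lower. SOCS1, an inhibitor of interferon receptor signaling, had 5.26, 5.24, 5.25 and 5.26 in LOL, against 3.97, 4.27, 4.09 and 4.09 in NOL. Its difference ran the other way, 2.22-fold higher (adjusted p = 1.04e-06). IRF2BP2, a corepressor of IRF2, was also 2.22-fold higher. The other 2 genes past a fold of 2, picked after their values were seen, were PTPN2, a phosphatase of JAK1 and STAT proteins (2.10-fold higher), and PIAS1, an inhibitor of STAT signaling (2.01-fold higher). TRIM28 (-0.09) and SOCS5 (0.10) did not pass.

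In a list of 46 other genes, mostly interferon-stimulated, 16 were lower (34.8%), 7 higher (15.2%) and 23 did not pass. The median difference was -0.10. IFITM5 and HERC3 were among the 7 higher, and whether they answer interferon was not tested. SAMHD1, which removes the nucleotides that viral DNA synthesis needs, was 2.96-fold lower, with 4.24, 4.46, 4.49 and 4.52 in LOL, against 5.89, 5.90, 6.07 and 6.12 in NOL. ZC3HAV1, the antiviral protein ZAP that binds viral RNA, was 2.79-fold lower, with 6.14 to 6.25 in LOL and 7.62 to 7.71 in NOL. PNPT1, a mitochondrial ribonuclease, was 1.86-fold lower, and SAMD9, a restriction factor of poxviruses, was lower, at -0.88 ± 0.13 (adjusted p = 3.94e-04). The widest of the 7 higher genes, picked after its value was seen, was IFI30, 1.76-fold higher (0.82 ± 0.07, adjusted p = 7.01e-06). TDRD7 (-0.13) and PML (-0.09), the organiser of nuclear bodies, did not pass.

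A list for antigen presentation by MHC class I and its control held 10 lower (45.5%), 2 higher (9.09%) and 10 not passed of 22 genes. The median difference was -0.17. The list took in CD74 and CIITA, which serve MHC class II and did not pass, and the regulator RFX5, which was lower. TAP1, a subunit of the peptide transporter, was at least 2.55-fold lower, with 3.16, 3.36, 3.43 and 3.44 in LOL, against 4.67, 4.84, 4.61 and 4.68 in NOL (adjusted p = 9.53e-07). PSMB9, a subunit of the immunoproteasome, was lower, at -0.86 ± 0.11 (adjusted p = 1.52e-04) and PSME3, a proteasome activator, was 2.14-fold lower. BOLA-NC1, a nonclassical class I gene, was 2.82-fold higher, at 5.53 to 5.64 in LOL and 3.87 to 4.32 in NOL. A pair of clusters named BOLA differed by 0.31 ± 0.09 and 1.38 ± 0.10, both higher, and of the B2M clusters 1 was higher (0.19) and 1 did not pass (0.09). Class I genes are close copies, so these clusters may read more than the gene they name. The chaperones TAPBP (-0.16 ± 0.06, adjusted p = 0.0541) and CANX (0.02) did not pass, though TAPBP did without LOL 3 (0.0392) or NOL 1 (0.0318). TAPBP also passed as lower after median centring (0.0134) and quantile normalization (0.0251), and by the unmoderated analysis of variance (0.0276). The same held with intensity trend and robust variances (0.00499) and among clusters over log2 4 in at least 1 group (0.0213).

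The interferon genes themselves gave little signal. Of 27 listed genes 7 had a cluster of their own, all with means under log2 4 in both groups, with 2 higher (28.6%) and 0 lower (0 lower also at an unadjusted p under 0.05 and by analysis of variance). IFNAH, an interferon alpha gene, had 3.73 to 4.18 in LOL and 3.13 to 3.56 in NOL (0.66 ± 0.11, adjusted p = 0.00112), but its second cluster did not pass (0.23 ± 0.09). IFNG had 1.13 to 1.46 in LOL and 0.96 to 1.07 in NOL (0.23 ± 0.08, adjusted p = 0.0395), and that call was lost without any 1 array other than LOL 2 (adjusted p of 0.0559 to 0.0979). IFN-TAU (-0.19 ± 0.22) and IFNL3 (0.27 ± 0.16) did not pass.

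**Figure D5:**
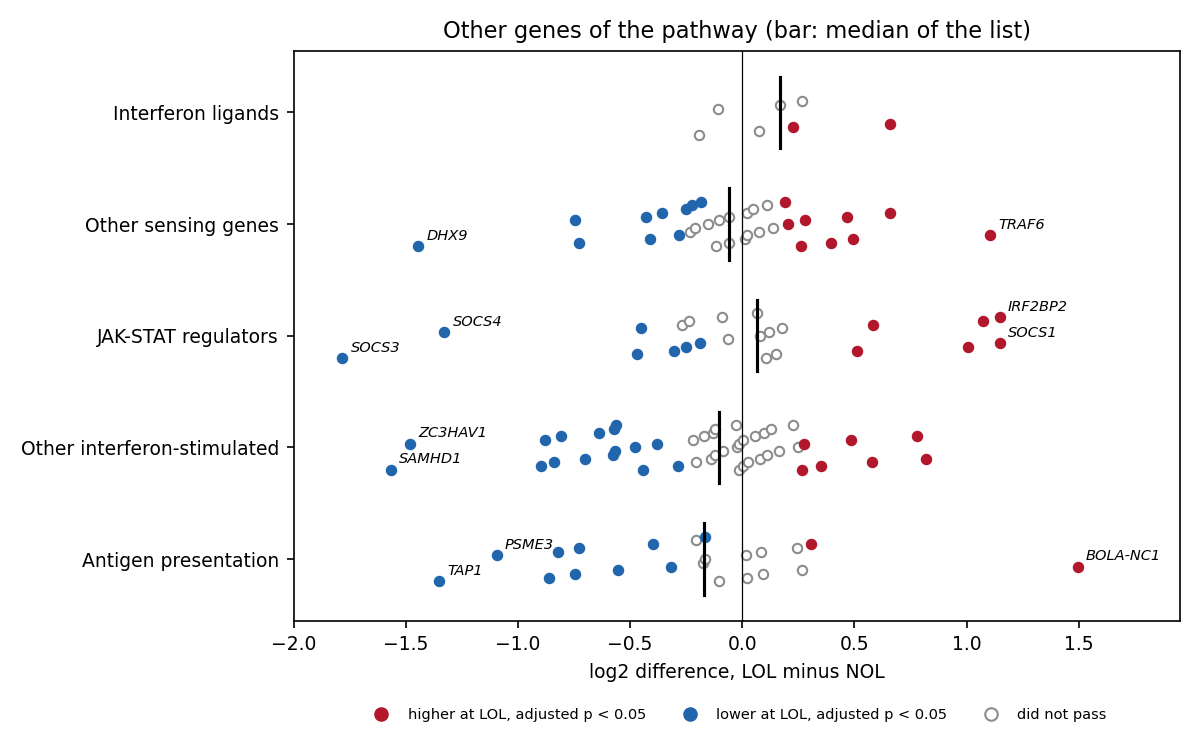
Log2 difference (LOL minus NOL) of each measured gene of 5 further lists of the pathway, 1 point per gene, with red for higher and blue for lower at an adjusted p under 0.05, open grey for not passed and a black bar at the median of the list. The JAK-STAT regulators spread from SOCS3 at -1.78 to SOCS1 and IRF2BP2 at 1.15, and antigen presentation has 10 blue points against 2 red.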

How the data were processed

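The deposited values are log2 signals that the authors computed with RMA, a method named in the submitters' processing notes (version not given in the sources used here), which subtracts background, equalises the arrays and condenses each cluster's probes to 1 value. They were used as they stand. Clusters were compared with limma 3.58.1 in R 4.3.3 (lmFit and eBayes, 2 groups, two-sided), with Benjamini-Hochberg adjustment over all 24415 clusters, after a test on simulated data. A gene was called at an adjusted p under 0.05, and a fold over 2 was a second call. Gene names came from the platform annotation, which gave 18550 clusters a single name, 595 more than 1 name and 5270 no name. A gene with several clusters is given by its brightest one. A fold over 2 whose lower group lies under log2 4 is a lower bound, and such genes that changed less are given on the log2 scale only. Members, lists and this rule were chosen with earlier results of these data known. Every member is named. Values of all arrays are given for called members with a fold over 1.5 and for the 4 brightest that did not pass, and in part for others. Of each further list up to 4 called genes with the widest change and up to 2 bright ones that did not pass are named.

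Arrays have no sequencing depth, and precision is limited by their number (4 per group). Slide and scan batches were not analysed here. Gene order came from RefSeq's table for an assembly other than the array's, so no coordinates are given. Alternatives were median centring, quantile normalization, an unmoderated analysis of variance (the methods' test), intensity trend with robust variances, only clusters over log2 4 in at least 1 group, the mean of a gene's clusters, the replicate number as a block, and each array left out in turn.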

Additional observations from a re-analysis of the deposited data

Results flagged for a closer look

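Of 134 groups of 4 arrays (67 named genes in LOL and in NOL) 5 had 1 array whose distance to its nearest neighbour took up most of the group's range by Dixon's criterion. Chance alone flags about 1 in 20 groups. IFNAR1 was 7.03 in LOL 4, where the next LOL array was at 6.97. STAT2 was 6.03 in LOL 3, where the other LOL arrays were all at 5.97. IRF9 was 4.79 in LOL 1, where the next was at 4.60, and XAF1 was 3.24 in LOL 2, where the next was at 3.12. TAPBP was 9.96 in NOL 1, where the other NOL arrays were all at 10.09. The LOL range of IFNAR1 and of STAT2 is narrow beside the gap to NOL, and both calls held without each of the arrays.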

How the results depend on the processing

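The 9 members with a fold over 1.5 kept their direction and passed under every alternative tried. None of the 21 called members reversed. The members held 13 to 17 lower and 3 to 7 higher genes, with 3 higher where only clusters over log2 4 in at least 1 group were tested, which drops 13 members. Calls lost under other scalings were JAK1 with median centring, and IFNAR2, TYK2, IRF4 and IRF3 with quantile normalization. IFNAR2 and IRF4 were also lost in the analysis of variance, where XAF1 was gained. IRF2 was gained with median centring, with robust variances and among clusters over log2 4 in at least 1 group. Median centring moved the median of all clusters from 0.06 to -0.01, and the whole-array split to 3585 higher and 5693 lower, against 5017 higher and 4999 lower as deposited. The LOL and NOL replicate numbers share only a number: the deviations of same-numbered arrays correlated at -0.03 to 0.11, and NOL 4 was the best match for 3 of the 4 LOL arrays. With the replicate block 7 members were higher and 14 lower (IFNAR2 and IRF3 lost, USP18 and IFIT3 gained).

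Counts of higher genes in the further lists were less steady. For other sensing genes (9) they fell to 4 with median centring, and to 5 to 8 without 1 array, lowest without LOL 1. For other interferon-stimulated genes (7) there were 4 with quantile normalization, and 4 to 6 without 1 array, lowest without NOL 4. For antigen presentation (2) there was 1 with median centring, and 1 to 3 without 1 array, with 1 without LOL 1 or NOL 1. For interferon ligands (2) there was 1 with median centring, quantile normalization, analysis of variance, robust variances or the replicate block, 0 over log2 4, and 1 to 2 without 1 array, with 2 only without LOL 2. Small differences that had not passed changed sign. These were TLR2 (-0.015, quantile), IFNGR2 (-0.0075, median centring), PQBP1 (-0.045, median centring) and CANX (-0.0425, median centring, and -0.015, quantile). RIGI minus IFIH1 was 0.11 with quantile normalization. Without 1 array, IFI44 ranged from -0.108 to 0.038, IFI6 from -0.118 to 0.055, IFIT5 from -0.074 to 0.0092, PQBP1 from -0.015 to 0.052, IFIT3 minus IFIT2 from -0.0775 to 0.056 and RIGI minus IFIH1 from -0.125 to 0.0050. The cause of these shifts was not tested. The values carry no measure of background, which limits what can be read from dim genes.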
